A study of Mus musculus with 4 samples.

Results

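The mRNAs described here belong to the ISG15 pathway and to a set of antiviral effectors induced by interferon. They were Isg15, Usp18, Ube2l6, Rsad2, Tyki (the array's name for Cmpk2), Mx1, Mx2, Bst2, Ifi44 and Xaf1. All probes carrying 1 of these 10 symbols were taken, and 8 of the 10 genes had such a probe. These 8 genes were read by 11 of the 45281 probes and were 8 of the 30872 gene symbols on the array. All 8 were among the 12616 genes detected on at least 1 array, that is, with a detection p-value below 0.01. The members were chosen by their measured values on these same arrays, so every ratio below is a description, and nothing is read from how many members were lowered.

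Interferon released by a cell binds receptors on neighbouring cells and, through the kinases Jak1 and Tyk2, activates transcription factors, Stat2 and Irf9 among them, that enter the nucleus and bind response elements in the promoters of antiviral genes. Isg15 is among the most strongly induced of these genes and encodes a ubiquitin-like protein. An E1, an E2 and an E3 enzyme attach Isg15 to other proteins, and Usp18 takes it off again. Usp18 also binds the receptor chain Ifnar2 and dampens the response. Fibroblasts make and respond to type I interferon.

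RNA came from murine embryonic fibroblasts (MEFs) of strain FVB;129 with homozygous LoxP sites in Rb, the retinoblastoma gene, and each of 4 conditions was measured on 1 Illumina array. Parental MEFs received the solution without TAT-Cre, a cell-permeable recombinase, and medium in place of virus. Rb-deleted MEFs received TAT-Cre and medium. WT Rb-HA MEFs received TAT-Cre and a retrovirus for wild-type Rb, and ΔCdk Rb-HA MEFs received TAT-Cre and a retrovirus for Rb that cannot be phosphorylated by Cdks. Below, the last 2 are called WT and ΔCdk MEFs, and every array but the parental one is a TAT-Cre array. Each treatment or infection was given 2 times for 1 h, 3 h apart. Per the study's text, but not the labels, all cells were released from contact arrest for 4 hr and treated with 100 ng/ml of the topoisomerase II inhibitor doxorubicin for 3 hr, so the parental cells were treated with it too. Neither the number of embryos nor the sharing of a culture between the arrays is given in the sources used here. No array received a virus without TAT-Cre or a virus without Rb. So the effects of TAT-Cre protein and of Rb loss cannot be told apart, nor can those of infection and of the Rb that a virus carried against an uninfected array.

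With 1 array per condition there was no replicate, no test and no p-value for any difference. The bead standard error (SE) given with a value is the standard error over the beads of a probe within an array. It covers neither the variation between cultures nor that between arrays, and the number of arrays limits the precision. Ratios are on the log2 scale after background correction and quantile normalization, and a gene is called lower past a 1.6-fold difference, or 0.68 on that scale. Where 4 intensities are given without names they run parental, Rb-deleted, WT, ΔCdk, and 3 ratios to parental run Rb-deleted, WT, ΔCdk. Mean intensity over all probes was 335.7 to 345.8 on the 4 arrays, and 15950 to 16740 probes were detected. The brighter Rb1 probe (chromosome 14, transcript position 4421) had an intensity of 542.7 in parental MEFs and 160.5, 180.9 and 170.1 in Rb-deleted, WT and ΔCdk MEFs. The other, at position 4002, read 108.0, 56.7, 51.06 and 52.91, and was not detected in WT and ΔCdk MEFs. The study's text reports physiologic levels of Rb protein from both viruses. Whether either probe reads the RNA of a virus was not tested. The fibroblast markers Vim, Fn1 and Dcn, a filament protein and matrix proteins, were the brightest of 10 on the parental array. All 10 fibroblast genes were detected on all 4 arrays.

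The sequences that bear on these genes are the probes that were not filed under a member's symbol and the promoters that hold a response element. The array had no probe with the symbol Isg15. Its Entrez gene number places the probe LOC100038882 on Isg15 (chromosome 4, transcript position 235), and that probe was added after the values had been seen. Another probe, LOC100048346 (transcript position 895), is described on the array as similar to Ubp43, an older name of Usp18. Their 50-base sequences from the deposited table are shown because they carry the readings of Isg15 and of a further Usp18-like transcript.
Isg15 (LOC100038882): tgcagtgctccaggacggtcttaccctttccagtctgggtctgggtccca
Usp18-like (LOC100048346): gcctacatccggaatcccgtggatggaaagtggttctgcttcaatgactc
The probe that shares the gene number of Xaf1 bears the symbol Fbxo39 (chromosome 11, transcript position 1991). It was not detected on any array, with intensities of 42.6, 44.7, 41.9 and 44.1, so no change of Xaf1 could be measured.

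RefSeq promoters of GRCm38.p6, from 250 bases before to 50 bases after a start, were given for 7 of the 10 genes. These were Isg15, Ube2l6, Rsad2, Cmpk2, Bst2, Ifi44 and Xaf1, while Usp18, Mx1 and Mx2 had no entry. The core of the interferon-stimulated response element, GAAA followed by any 2 bases and then GAAA, was searched on both strands. It was found in 3 of the 7, those of Isg15, Rsad2 and Bst2, beside 1079 of all 27025 genes in the table (3.99%). Counted by promoter, the table held it in 1131 of 32851 (3.44%). Isg15 held 3 overlapping matches from 78 to 57 bases before its start, Bst2 held 2 overlapping matches from 130 to 115 bases before, and Rsad2 held 1 match on the opposite strand, 120 to 111 bases before. The 120 bases around them are shown 5′ to 3′ on the minus strand of each chromosome, which carries all 3 genes, with the matches in capitals.
Isg15, chr4:156200826-156200945: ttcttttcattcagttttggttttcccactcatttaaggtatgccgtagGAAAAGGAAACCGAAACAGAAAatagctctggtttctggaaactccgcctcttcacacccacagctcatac
Rsad2, chr12:26456508-26456627: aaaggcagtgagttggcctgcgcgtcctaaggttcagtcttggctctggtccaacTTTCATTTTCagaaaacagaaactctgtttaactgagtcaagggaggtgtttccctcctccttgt
Bst2, chr8:71537535-71537654: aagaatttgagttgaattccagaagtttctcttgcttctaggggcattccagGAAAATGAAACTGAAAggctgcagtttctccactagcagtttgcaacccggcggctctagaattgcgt
A match describes letters and not a bound site. The absence of a match in the other 4 promoters says only that these letters are not in that window.

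Every member was highest in parental MEFs, and the ΔCdk array was the lowest for 5 of the 8 genes, namely Usp18, Rsad2, Tyki, Mx2 and Ifi44. For Ifi44 that lowest reading was one at which its probe was not detected. Bst2 was lowest in WT MEFs, but within the bead error of ΔCdk MEFs, with a difference of 0.08 (bead SE 0.26). Ube2l6 was lowest in Rb-deleted MEFs by its brighter probe and in ΔCdk MEFs by the other. Mx1 was not detected on any TAT-Cre array, so that its order there has no meaning. The 3 ratios to parental MEFs share the parental array, so they are not independent of each other. In bulk RNA, fewer cells that express a gene and less of its RNA per cell cannot be told apart.

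**Figure D1:**
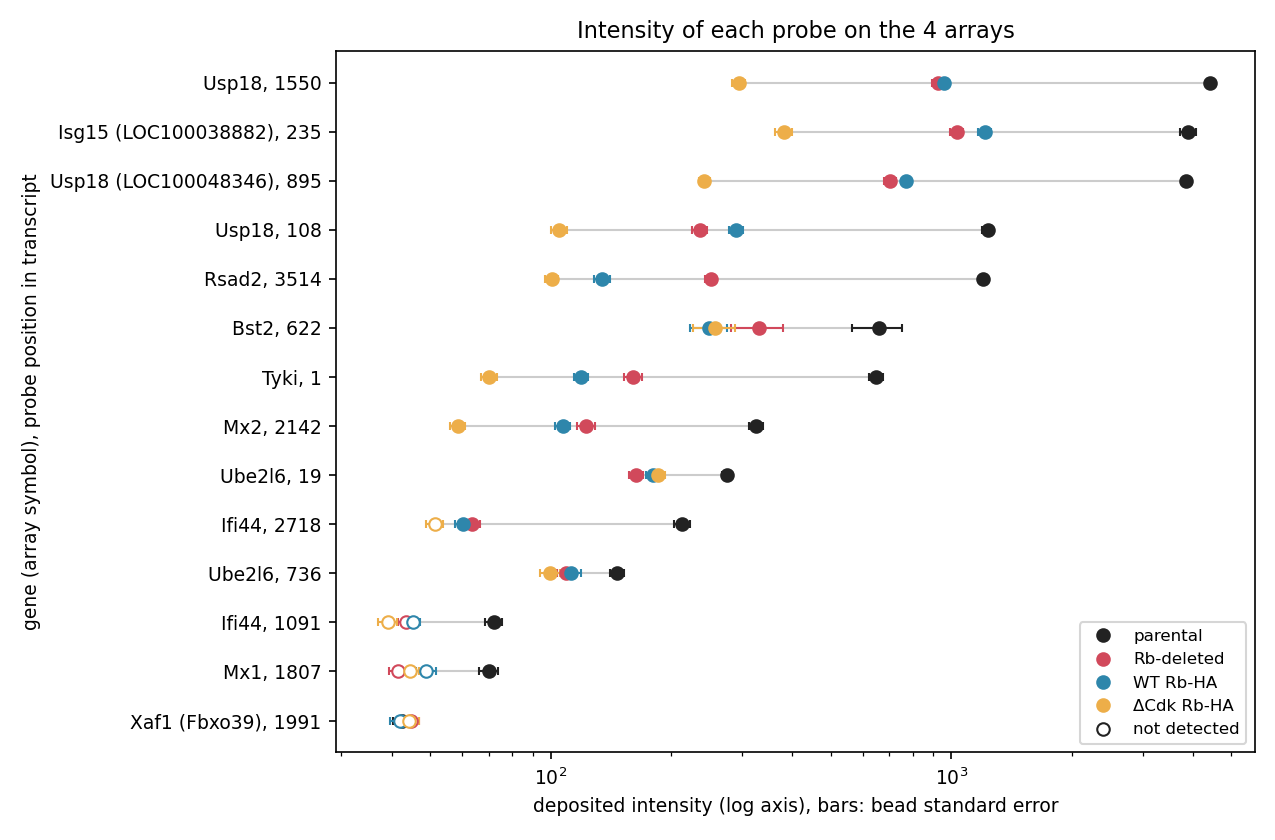
Deposited intensity (log axis) of every probe of the members and of the Isg15, Usp18-like and Xaf1 probes matched by other names, with 1 point per array and bars for the bead standard error. The parental point lies to the right for every probe except that of Xaf1, which was not detected, and open points mark arrays on which a probe was not detected (detection p-value of 0.01 or more).

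Isg15 and the protease that removes it gave much the same pattern over the arrays. The Isg15 probe read 3897 (bead SE 181) in parental MEFs, 1030 (40.4) in Rb-deleted MEFs, 1210 (48.1) in WT MEFs and 381.9 (18.3) in ΔCdk MEFs. The main Usp18 probe (chromosome 6, transcript position 1550) read 4424 (75.1), 924.3 (29.96), 961.0 (23.7) and 294.8 (10.9) in the same order. For both genes the parental array stood highest, the Rb-deleted and WT arrays lay close together, and the ΔCdk array was the lowest. On the log2 scale Usp18 was lower than in parental MEFs by −2.28 (bead SE 0.06) in Rb-deleted, −2.21 (0.05) in WT and −3.98 (0.06) in ΔCdk MEFs. The Isg15 ratios were −1.90 (0.10), −1.66 (0.10) and −3.34 (0.11). Usp18 stood 12th, 18th and 5th from the lowest of the 12616 genes in these 3 ratios.

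The other Usp18 readings showed the same order of arrays. The probe at transcript position 108 read 1232, 235.4, 289.8 and 104.9, and the Usp18-like probe read 3852, 702.8, 771.3 and 241.8. Their log2 ratios of ΔCdk to parental MEFs were −3.83 and −4.06. All 3 probes were therefore lowest in ΔCdk MEFs and highest in parental MEFs. Whether the Usp18-like probe reads the RNA of Usp18 was not tested.

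Ube2l6 is the E2 enzyme that hands Isg15 to its targets, and it moved much less than Isg15 or Usp18. Its probe at transcript position 19 read 275.6 in parental, 163.4 in Rb-deleted, 180.1 in WT and 185.4 in ΔCdk MEFs. The log2 ratios to parental were −0.80 (bead SE 0.08), −0.65 (0.08) and −0.56 (0.08), so only the Rb-deleted array passed 1.6-fold. The second probe, at position 736, read 146.2, 109.0, 112.5 and 99.75, with ratios of −0.48, −0.45 and −0.65, none of which passed. With the mean of both probes the ratio in Rb-deleted MEFs was −0.64 and did not pass. The probes thus disagreed on the call in Rb-deleted MEFs and on which of the 3 TAT-Cre arrays was lowest.

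The other enzymes of Isg15 conjugation were taken from a list of 4 genes, of which 3 were detected. Uba7 (Ube1l on the array), the E1 enzyme, read 513.8, 307.5, 316.1 and 206.0 on the 4 arrays. Its log2 ratios to parental were −0.74, −0.69 and −1.35, all past 1.6-fold. Trim25, a ubiquitin and Isg15 ligase that activates the RNA sensor RIG-I, read 2048, 1197, 1322 and 917, with ratios of −0.73, −0.58 and −1.09. Arih1, a ligase of the RBR family, had ratios of −0.38, −0.27 and −0.18. The main mouse Isg15 ligase, Herc6, was read by 1 probe, filed on the array as Herc5, which was not detected on any array. In the list 2, 1 and 2 genes were lower past 1.6-fold in the 3 ratios, beside 2.98%, 2.46% and 3.30% of all genes. The list's medians were −0.73, −0.58 and −1.09.

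Rsad2 and Tyki are neighbours on chromosome 12 with no other gene between their starts in RefSeq. Rsad2 encodes viperin, which turns CTP into a chain-terminating nucleotide, and Tyki encodes a mitochondrial nucleotide kinase that supplies CTP precursors. Rsad2 (transcript position 3514) read 1197 (bead SE 27.4) in parental, 250.4 (7.71) in Rb-deleted, 134.1 (6.02) in WT and 100.4 (3.54) in ΔCdk MEFs. Tyki (position 1) read 648.5 (27.0), 160.5 (8.19), 118.9 (4.97) and 70.17 (3.25). In contrast to Usp18, both genes stepped down from one array to the next, and each step was beyond 2 bead standard errors. The log2 ratios of Rsad2 to parental were −2.31 (0.06), −3.37 (0.08) and −3.87 (0.08), and those of Tyki were −2.15 (0.10), −2.68 (0.10) and −3.70 (0.12). Rsad2 was the lowest of all 12616 genes in the ratio of WT to parental MEFs, where Tyki was the 4th lowest.

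Mx1 and Mx2 encode dynamin-like GTPases that block viral replication. Both are annotated as transcribed pseudogenes in the C57BL/6J reference of RefSeq, and the strain here was FVB;129. Mx2 (transcript position 2142) read 325.3 (bead SE 13.2), 122.5 (6.07), 107.0 (4.48) and 58.55 (2.64) on the 4 arrays. Its log2 ratios to parental were −1.56 (0.11), −1.83 (0.10) and −3.07 (0.13). As for Rsad2 and Tyki, each step down was beyond 2 bead standard errors, but that from Rb-deleted to WT MEFs was small, −0.27 (0.12). The ΔCdk reading of Mx2 lay near the lowest detected intensity on that array, 55.54. Its deposited intensities in parental and ΔCdk MEFs differed by 5.555-fold. Mx1 (chromosome 16, position 1807) was detected only in parental MEFs, at 69.91 (3.82), against 41.52, 48.76 and 44.36 elsewhere. It was at least 1.5-fold lower in Rb-deleted, at least 1.37-fold lower in WT and at least 1.44-fold lower in ΔCdk MEFs. These bounds are set against the dimmest probes detected on each array, or the probe's own value where that is higher, and none of them reached 1.6-fold.

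Bst2 encodes tetherin, a membrane protein that holds budding virions at the cell surface. Its probe (chromosome 8, position 622) read 659.4 (bead SE 94.6), 331.2 (49.5), 248.5 (26.4) and 257.6 (31.2), and was noisier within an array than the other probes. The log2 ratios to parental were −1.004 (0.32), −1.45 (0.27) and −1.37 (0.29). Each was over 2 bead standard errors below 0, but the 3 TAT-Cre arrays did not differ from each other beyond 2 bead standard errors.

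Ifi44, a cytosolic protein of the antiviral response, was read by 2 probes on chromosome 3. The probe at position 2718 read 212.4 (bead SE 9.86) in parental, 63.35 (3.12) in Rb-deleted and 60.49 (2.73) in WT MEFs, and was not detected in ΔCdk MEFs at 51.34 (2.56). The ratios were −2.20 (0.14) and −2.38 (0.13), and ΔCdk was at least 5.82-fold below parental after background correction. That bound depends on the correction, since the deposited intensities differed by 4.14-fold. The probe at position 1091 was detected in parental MEFs alone, at 72.01, and the other arrays were at least 1.56-, 1.43- and 1.51-fold lower. Both probes were thus brightest on the parental array, and the second gives bounds under 1.6-fold only.

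**Figure D2:**
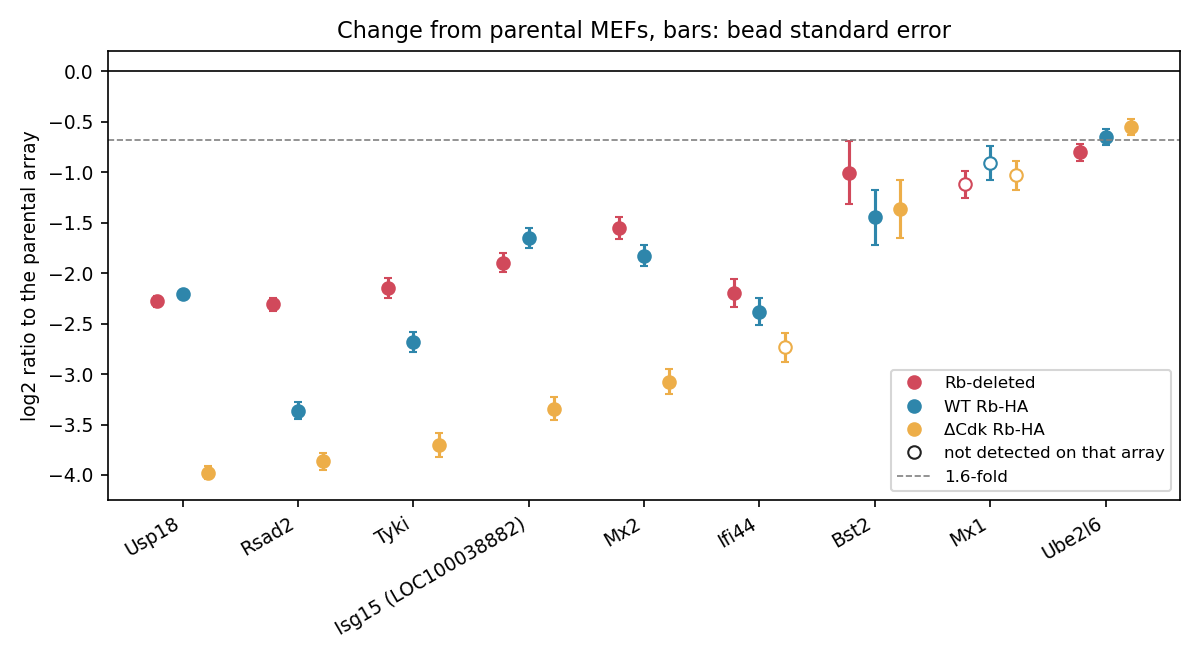
Log2 ratio to the parental array of each member by its brightest detected probe, and of Isg15 by the probe matched through its gene number, with bead standard errors. All points lie below 0. The ΔCdk points of Usp18, Rsad2, Tyki, Isg15 and Mx2 lie from −3.07 to −3.98, and Ube2l6 lies near the 1.6-fold line. Open points mark arrays on which the probe was not detected, whose plotted ratios are not bounds.

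Counted by gene, 8 of 8 members were lower past 1.6-fold in Rb-deleted MEFs, beside 2.98% of the 12616 genes. In WT MEFs 7 of 8 were lower, beside 2.46% of all genes, and in ΔCdk MEFs 7 of 8, beside 3.30%. Ube2l6 was the exception in both. No member was higher past 1.6-fold in any comparison, beside 68 to 325 of the 12616 genes. At so small a share, none of 8 is no result about the members. The median log2 ratios of the members were −1.85, −2.02 and −2.91, and those of all genes were 0.02, 0.01 and −0.01. With undetected genes placed at their bound, the counts were 7, 6 and 6 and the medians −1.85, −2.02 and −2.81, the loss being Mx1. Leukocyte markers were lower on the same 3 arrays, with medians of −0.95, −1.11 and −1.04. Because the members were selected on these readings, the counts describe them and are no evidence for a shift of the set.

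Between WT and Rb-deleted MEFs, Rsad2 was the member that passed 1.6-fold. It was lower in WT MEFs by −1.05 (bead SE 0.09), so the count was 1 of 8 beside 0.484% of all genes. Tyki at −0.54 (0.11) and Mx2 at −0.27 (0.12) were also below 0 by more than 2 bead standard errors but did not pass. Usp18 differed by 0.07 (0.07), and Isg15 was 0.24 (0.08) higher in WT MEFs. The members' median was −0.23, or −0.27 without Mx1, against −0.02 for all genes. Rsad2 and Tyki therefore pointed down where Usp18 and Isg15 did not, a difference among members that has no replicate behind it.

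ΔCdk MEFs were lower than Rb-deleted MEFs past 1.6-fold for Usp18, Rsad2, Tyki and Mx2, which is 4 of 8 members beside 1.95% of all genes. The log2 differences were −1.70 (bead SE 0.08) for Usp18, −1.56 (0.09) for Rsad2, −1.56 (0.13) for Tyki and −1.52 (0.14) for Mx2. Isg15 differed by −1.45 (0.10). These 5 genes lay between −1.45 and −1.70, but they are the ones that passed in this comparison. Over all 8 members the differences ran from −1.70 to 0.25. Ube2l6 at 0.25 (0.10) and Bst2 at −0.36 (0.30) did not pass, and neither did Ifi44, whose deposited intensities differed by 1.23-fold. The members' median was −1.03, or −1.52 without Mx1 and with Ifi44 at its bound, against −0.03 for all genes.

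ΔCdk MEFs were also lower than WT MEFs for Usp18, Mx2 and Tyki, 3 of 8 members beside 1.01% of all genes. Usp18 differed by −1.77 (bead SE 0.07) and was the 3rd lowest of 12616 genes, Mx2 differed by −1.25 (0.14) and Tyki by −1.02 (0.13). With a background offset of 50 Mx2 stood at −0.759, while Tyki stood at −0.673 and no longer passed, which left 2 members. The Isg15 probe differed by −1.69 (0.10). Rsad2, already low in WT MEFs, differed by −0.50 (0.11) and did not pass. Ifi44 differed by 1.18-fold in deposited intensity, while Bst2 differed by 0.08 (0.26) and Ube2l6 by 0.09 (0.09). The members' median was −0.43, or −0.50 without Mx1 and with Ifi44 at its bound, against −0.01 for all genes. Both of these arrays received TAT-Cre and a retrovirus, and they differed by label in the Rb that the virus carried.

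**Figure D3:**
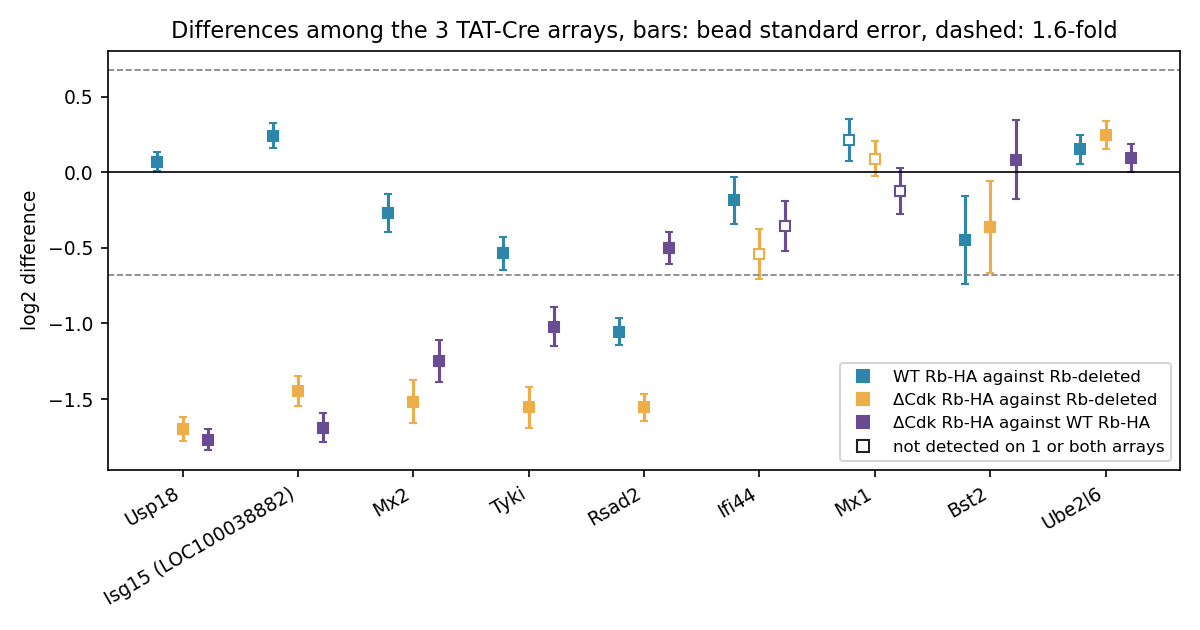
Log2 differences among the 3 TAT-Cre arrays for each member and for the Isg15 probe, with bead standard errors and dashed lines at 1.6-fold. ΔCdk lay below both other arrays past the line for Usp18, Isg15, Mx2 and Tyki. Rsad2 lay past it in WT and in ΔCdk MEFs when set against Rb-deleted MEFs. Open squares mark pairs in which the probe was not detected on 1 or both arrays.

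Receptor and signalling genes of the interferon response were read from a list of 8 genes, of which 6 were detected. Stat2, Irf9 and Irf7 were lower than in parental MEFs past 1.6-fold on all 3 TAT-Cre arrays. The count was thus 3 of 6 each time, beside 2.98%, 2.46% and 3.30% of all genes. Irf7, a transcription factor that amplifies interferon production, read 371.7, 122.6, 118.4 and 58.6 on the 4 arrays. Its log2 ratios were −1.77, −1.84 and −3.29. Irf9 read 516.5, 260.3, 246.6 and 135.1, with ratios of −1.01, −1.10 and −2.08, and Stat2 had ratios of −1.06, −1.02 and −2.12. Each of these 3 genes again read near the same in Rb-deleted and WT MEFs and was lower in ΔCdk MEFs, past 1.6-fold against both. The kinases Jak1, at −0.51, −0.48 and −0.54, and Tyk2, at −0.31, −0.28 and −0.34, did not pass. The receptor chain Ifnar2 did not pass at −0.19, −0.27 and −0.34, and Ifnar1 and the feedback inhibitor Socs1 were not detected.

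Interferons themselves were hardly seen. Of 18 ligand genes 17 had a probe and 3 were detected, and Ifnb1, the interferon fibroblasts make first, was at background with intensities of 33.2, 33.0, 36.7 and 37.1. The detected ligands Ifna6, Ifnab and Ifnz belong to the type I interferon family. None of these ligands was lower than in parental MEFs past 1.6-fold, beside 2.98%, 2.46% and 3.30% of all genes. Whether their probes read other genes of that family was not tested. Ifnz read 66.9, 67.5, 81.8 and 115.7, and was higher past 1.6-fold in ΔCdk MEFs, where its log2 ratio to parental was 1.11. In that ratio 325 of all 12616 genes were higher past 1.6-fold. A transcript at background gives no change in either direction.

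Another 30 antiviral genes made up the last list, and 22 of them were detected. Lower past 1.6-fold were 13 in Rb-deleted, 14 in WT and 17 in ΔCdk MEFs, beside 2.98%, 2.46% and 3.30% of all genes. The medians were −0.80, −0.90 and −1.21. The 3 lowest in Rb-deleted MEFs were Gvin1, a large GTPase, at −2.40, Parp14, an ADP-ribosyltransferase, at −1.64, and its ligase neighbour Dtx3l at −1.30. The 3 highest were Ifitm2 at 0.13, Plscr1 at 0.05 and Ifitm1 at −0.14. Ifitm1 and Ifitm2 encode membrane proteins that hinder virus entry, and they stayed bright at 9963 or above and 8794 or above on the 4 arrays. In each ratio to parental 20 of the 22 genes were below 0. Ifi205, a DNA-binding protein of a family of near-identical genes, was picked out after its values were seen because it ran against the members among the TAT-Cre arrays. It read 103.3, 57.27, 97.3 and 116.0, and was 1.44 higher on the log2 scale in ΔCdk than in Rb-deleted MEFs (bead SE 0.13).

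The genes nearest to the members' median profile, by Euclidean distance over the 3 log2 ratios to parental, were Parp14 at a distance of 0.29, Ccl5 at 0.32, Cd69 at 0.34, Iigp2 and Samd9l at 0.35, Oas1g at 0.38, Ccl3 at 0.41 and Irf7 at 0.43. Ccl5 and Ccl3 are chemokines, Cd69 is an activation antigen of leukocytes, and Iigp2 and Oas1g are interferon-induced. The profile rests on 4 arrays, and the 3 ratios share the parental one.

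Leukocyte genes were also lower on the TAT-Cre arrays, beside the antiviral genes. Of 18 leukocyte markers 14 were detected, 13 of them on all 4 arrays, and all 14 were below 0 in each ratio to parental. Lower past 1.6-fold were 10, 13 and 12 of the 14, beside 2.98%, 2.46% and 3.30% of all genes. The medians were −0.95, −1.11 and −1.04. Their summed intensity was 10720 in parental MEFs and 5610, 5119 and 6356 in Rb-deleted, WT and ΔCdk MEFs. The brightest were the lysozymes Lyz, at 4801, 2976, 2803 and 3611, and Lyz2, at 834.0, 460.8, 429.7 and 696.3, and the membrane protein Laptm5, at 2286, 860.2, 663.4 and 782.0. The macrophage marker Emr1 read 773.0, 247.0, 202.6 and 197.5, with log2 ratios to parental of −1.69, −2.02 and −2.02. Ratios of the complement genes C1qb and C1qc were −1.56, −1.67 and −2.003, and −1.68, −1.44 and −1.52. Emr1, C1qb and C1qc, named after their values were seen, were the lowest of the 14 detected genes in Rb-deleted MEFs. The leukocyte medians were nearer to 0 than those of the members, which were −1.85, −2.02 and −2.91. Csf1r, the receptor for the macrophage growth factor, read 272.0, 159.4, 134.4 and 140.1, and Cd68 and Cd14 were also lower past 1.6-fold on all 3 arrays. Of the other defining markers, Ptprc and Itgam were not detected on any array, nor were Lyz1 and Fcer1g. Between ΔCdk and Rb-deleted MEFs the leukocyte median was −0.20, with 9 of the 14 genes below 0. Between ΔCdk and WT MEFs it was 0.05, with 6 of the 14 genes below 0. No leukocyte gene was lower past 1.6-fold in either comparison, beside 1.95% and 1.01% of all genes. Lyz2, at 0.78 higher in ΔCdk than in WT MEFs, was the 1 leukocyte gene higher past 1.6-fold there, beside 106 of all 12616 genes. The part of leukocyte RNA in the lower antiviral readings against parental MEFs was not tested.

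Fibroblast genes moved less. The 10 fibroblast markers summed to 65340 in parental and to 60050, 66540 and 58680 in Rb-deleted, WT and ΔCdk MEFs, with medians of −0.15, −0.01 and −0.35. Col3a1, a fibrillar collagen, was the 1 gene of 10 lower past 1.6-fold in Rb-deleted and in ΔCdk MEFs, beside 2.98% and 3.30% of all genes. All 5 endothelial markers were undetected, and 4 of 6 epithelial markers were detected at a summed intensity of 300.2 to 363.7.

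**Figure D4:**
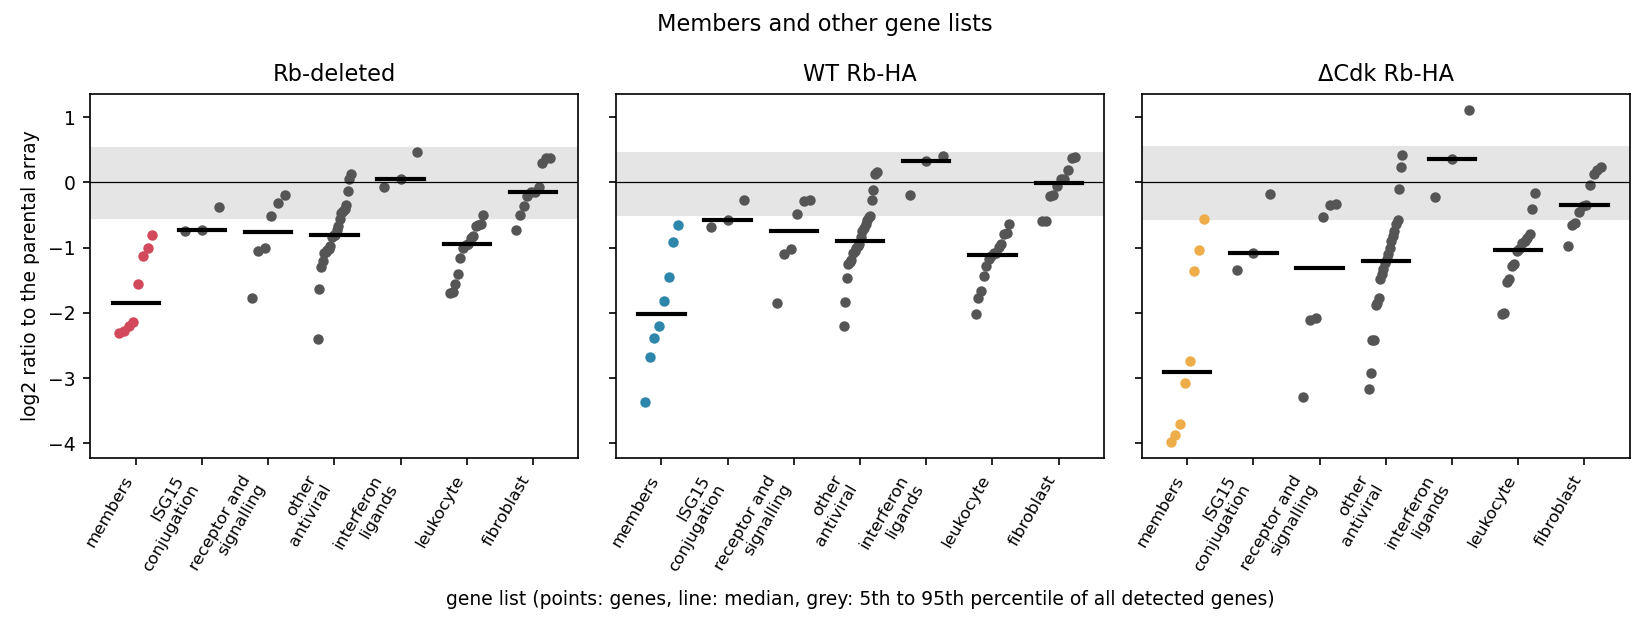
Log2 ratio to the parental array of the detected members and of 6 other gene lists, 1 panel for each TAT-Cre array, with points for genes, a line for each median and grey for the 5th to 95th percentile of all detected genes. The medians of the members are −1.85, −2.02 and −2.91, those of the receptor and signalling list −0.76, −0.75 and −1.31, and those of leukocyte genes −0.95, −1.11 and −1.04.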

How the data were processed

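The authors deposited, for each of 45281 probes on MouseWG-6 v2.0 BeadChips, a summarized intensity on a linear scale that had not been normalized between arrays. The deposited table also gives a detection p-value and, as measures of signal quality, the standard error over the beads of a probe and how many beads there were (median 44 on each array). No column of sample values was left unused. The array software and genome build are not given in the sources used here, so positions are those within transcripts. For 44 probes the symbol had become a date, and 34 of these were restored through the Entrez gene number with RefSeq (GRCm38.p6).

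Background was corrected with limma 3.58.1 in R 4.3.3 (normexp, using the detection p-values, offset 16), followed by quantile normalization of the arrays and log2. The offset pulls the ratios of dim genes toward 0. Genes with a probe under a detection p-value of 0.01 on 1 or more arrays were kept. Each was represented by its brightest detected probe. Bead standard errors were carried into each ratio. A lower bound was given where a probe was detected on 1 array of a pair. The calculation was tested on simulated data. Figures and counts were made in Python 3.11.15.

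The labels gave 1 array per group, so 6 pairwise comparisons were described with no test. The members and lists were chosen with earlier results of these data known. The genes named were all probes of the members, Rb1, the genes of the conjugation, receptor and ligand lists, the 3 lowest and 3 highest other antiviral genes in Rb-deleted MEFs, the 3 brightest markers of a cell type and those at background, and the 8 genes nearest to the members' median. 1 further signalling gene is not reported here. The Isg15, Xaf1 and Usp18-like probes, Col3a1, Ifi205, the further macrophage markers and the difference of Lyz2 were added after their values were seen. As alternatives, background correction was omitted or its offset raised to 50, arrays were scaled to a common median, probes had to be detected on all 4 arrays, probes of a gene were averaged, the threshold was 2-fold, or calls also had to pass 2 bead standard errors.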

Additional observations from a re-analysis of the deposited data

How the results depend on the processing

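No paired analysis was possible because each condition had 1 array, and for the same reason no replicate could be left out. All counts of members lower past 1.6-fold, or past 2-fold, were within 1.5 times the counts given, and no member's ratio to parental MEFs was above 0 under any setting. Calls lost at an offset of 50 were those of Mx1 on all 3 arrays against parental, of Ube2l6 in Rb-deleted MEFs, and of Tyki in ΔCdk against WT MEFs. Without background correction Mx1 lost its calls in WT and ΔCdk MEFs, and with averaged probes Ube2l6 lost its call in Rb-deleted MEFs. The medians depended more on the background. Without background correction they were −1.52, −1.69 and −2.22 in Rb-deleted, WT and ΔCdk MEFs against parental, and −0.70 in ΔCdk against Rb-deleted MEFs. With an offset of 50 these were −1.42, −1.57, −2.03 and −0.64. Both settings pull dim genes toward 0 by construction. The mean of a gene's detected probes in place of the brightest gave −1.61, −1.78 and −2.53 against parental. With probes detected on all 4 arrays only, which leaves 6 genes without Mx1 and Ifi44, ΔCdk stood at −3.39 against parental, −1.54 against Rb-deleted and −0.76 against WT MEFs. Adding the Isg15 probe, chosen after seeing the data, gave −1.45 in ΔCdk against Rb-deleted MEFs. Of 228 values of single genes under these settings, 183 stayed within the 95% interval of the bead error, 45 did not, and 1 had another sign than in the main setting. The median of all genes shifted by at most 0.03. Mx1, Ifi44 and Xaf1 are limited by signal over background. So is Mx2 in ΔCdk MEFs, where its intensity of 58.55 lay near the lowest detected, 55.54.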
